A study of Mus musculus with 12 samples.

Results

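TBLR1, encoded by Tbl1xr1, was knocked down in resting 3T3-L1 adipocytes, and the transcripts of these cells were compared with those of adipocytes that received a control shRNA. The comparison was defined by the sample labels: 3 arrays of cells with a TBLR1-specific shRNA and 3 arrays of cells with a negative control shRNA, none of them given isoproterenol, out of 12 arrays in the series. Every probe set with 1 gene symbol entered, which gave 15270 of 16553 probe sets and 15267 genes. 3T3-L1 is a mouse preadipocyte line that is differentiated into fat cells in culture, here with insulin, 3-isobutyl-1-methylxanthine and dexamethasone. In all groups the cells were transduced on day 9 of differentiation with an adenovirus at a multiplicity of infection of 500, so the control cells carry a virus and an shRNA as well. The protocol places a 2 h preincubation in Krebs-Ringer buffer 3 days later, followed in the other 6 arrays by 10 µM isoproterenol, a beta-adrenergic agonist, for 3 h. The labels give 1 line and name 1 shRNA target per group. They do not say how many shRNA sequences were used, or whether the 3 replicates were separate cultures. If the replicates were not, the p-values describe technical spread alone. Loss of TBLR1 and other effects of the TBLR1 shRNA sequence or its virus cannot be told apart in this design.

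TBLR1 is a WD-repeat protein of the NCoR/SMRT corepressor complex, which is brought to chromatin by nuclear receptors and other transcription factors and carries the histone deacetylase HDAC3. TBLR1 and its relative TBL1 are known as exchange factors, which help corepressors leave a promoter when it is switched on, and TBLR1 can thus take part in both repression and activation. In fat cells the complex is known for acting with PPARγ and other receptors on genes of lipid storage and lipid breakdown, and in macrophages for holding inflammatory genes down. The question named by the series is how this cofactor bears on lipid mobilisation, and the resting cells give the state that precedes a lipolytic stimulus.

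Values are log2 expression levels that had been quantile normalised before deposit and ran from 5.39 to 14.58. With 3 arrays a group their number limits the precision, and the median SD of a gene was 0.0504 among the control arrays and 0.0517 among the TBLR1 arrays. Differences are TBLR1 minus control shRNA on the log2 scale with the standard error (SE) of a limma model, and a gene is said to have risen or fallen where the Benjamini-Hochberg adjusted p over all 15267 genes was under 0.05. The adipocyte marker Adipoq read 14.54 in all 3 control arrays, near the top of the scale. Markers of other cells lay near its bottom: Ptprc, a pan-leukocyte gene, read 5.74 to 5.86 and the endothelial gene Pecam1 6.15 to 6.26 over the 6 arrays. None of 10 endothelial and none of 10 lymphocyte markers was called, and at an unadjusted p under 0.05 the limma counts were 0 and 0 as well. Calls are rare at such levels: the median control levels of these lists were 6.16 and 6.11. Of the 5089 genes of lowest level (5.47 to 6.48) 3.81% rose and 2.93% fell. A sign of RNA handling, the 3′ minus 5′ difference of control probe sets, differed slightly with the shRNA for beta-actin. It was 0.928 to 0.957 in control and 0.877 to 0.912 in TBLR1 arrays. For Gapdh the groups overlapped, at 0.010 to 0.057 in control and 0.023 to 0.053 in TBLR1 arrays. The part of RNA handling in the results was not tested. In a bulk culture fewer cells of a type and less RNA per cell cannot be told apart.

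Tbl1xr1 itself was lower in every TBLR1 array, at 57.7% of the control level. It read 7.20, 7.27 and 7.26 with control shRNA and 6.45, 6.47 and 6.43 with TBLR1 shRNA, a difference of -0.79 ± 0.04 (SE, n = 3 arrays per group; limma adjusted p = 8.36e-10). The groups were far apart, but the TBLR1 arrays read within the levels of the 5089 lowest genes (5.47 to 6.48), so the share of transcript that remained is at most this value where background adds to the signal. The array values cannot say how much protein remained. Tbl1x, which encodes the related exchange factor TBL1, read 8.71, 8.78 and 8.72 against 8.62, 8.57 and 8.45. It fell by 0.19 ± 0.05 without overlap of the groups (limma adjusted p = 0.00481), but was not called with centring on hybridisation controls (adjusted p = 0.128).

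The other partners moved little. Hdac3, the deacetylase of the complex, fell by 0.14 (limma adjusted p = 0.00662), and Cops2, which encodes a COP9 signalosome subunit, fell by 0.12 (limma adjusted p = 0.0221). With centring on hybridisation controls neither was called, and for Cops2 the call was also lost without control replicate 1 (limma adjusted p = 0.0501), without control replicate 2 (0.0653) and without TBLR1 replicate 1 (0.116). Gps2, another core subunit, differed by 0.02 ± 0.06 (limma adjusted p = 0.818), and Hdac2, a deacetylase of the SIN3 and CoREST complexes, by -0.12 ± 0.07 (limma adjusted p = 0.200). The scaffolds of those other 2 complexes rose. Rcor1, of CoREST, read 7.32, 7.21 and 7.35 against 7.77, 7.59 and 7.86, a rise of 0.45 ± 0.13 (limma adjusted p = 0.00918). Sin3a read 8.01, 8.02 and 7.94 against 8.32, 8.32 and 8.27, a rise of 0.31 ± 0.04 (limma adjusted p = 6.38e-06). In both genes every TBLR1 array lay above every control array. Of the 8 measured members of the corepressor list 2 rose and 4 fell.

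Over all genes many transcripts differed by small amounts between the TBLR1 and the control shRNA. Of 15267 genes 5756 (37.7%) passed the test, 2701 (17.7%) upward and 3055 (20.0%) downward, and 64.5% of them changed by under 1.25-fold. All 3 TBLR1 arrays lay above or all below the 3 control arrays for 46.9% of genes. The large changes were mostly rises: 112 genes rose and 34 fell by 2-fold or more, 25 rose and 0 fell by 4-fold or more, and 4 rose by 8-fold or more. With the arrays centred on the hybridisation controls in place of the deposited scale, 66.6% of called genes were higher, against 46.9%, so the balance of small rises and falls depends on the scaling. Calls were more frequent among highly expressed genes: among the 5089 genes of lowest level 3.81% rose and 2.93% fell, and among the 5088 of highest level 29.2% rose and 36.1% fell.

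The same shRNA contrast in the 6 arrays with isoproterenol shares no array with this one, although both draw on 1 estimate of the spread. In those arrays 41.7% of genes passed, and of the 5756 genes called at rest 4656 (80.9%) were called in the same direction and 60 in the opposite one. Among the 613 genes that changed by 1.5-fold or more, 607 (99.0%) were called again in the same direction. The plot of both effects shows most genes along the diagonal, with a minority that leave it, some of which are named at the end.

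**Figure D1:**
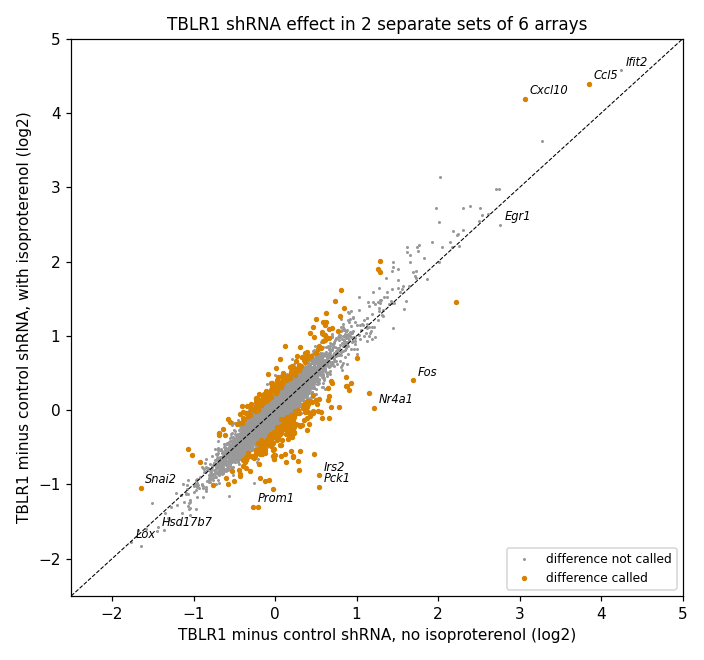
Each point is 1 of 15267 genes, with the TBLR1 minus control difference (log2) without isoproterenol on the horizontal axis and with isoproterenol on the vertical axis. The dashed line marks equal differences, and orange points are the 366 genes for which the difference between the effects had an adjusted p under 0.05.

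The gene lists used below hold 1341 measured genes in 63 groups. In the overview of these lists cholesterol synthesis stood at one end, with 14 of 14 members down, and the interferon-induced GTPases at the other, with 7 of 7 up. Antiviral effectors, class I antigen presentation, actin and immediate early genes lay close to the upper end. Lipogenesis, branched-chain amino acid breakdown and adipocyte markers lay close to the lower end. The median of all genes was -0.01 as deposited, 0.00 after cyclic loess and 0.06 with centring on hybridisation controls, and list medians are to be read against these values.

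**Figure D2:**
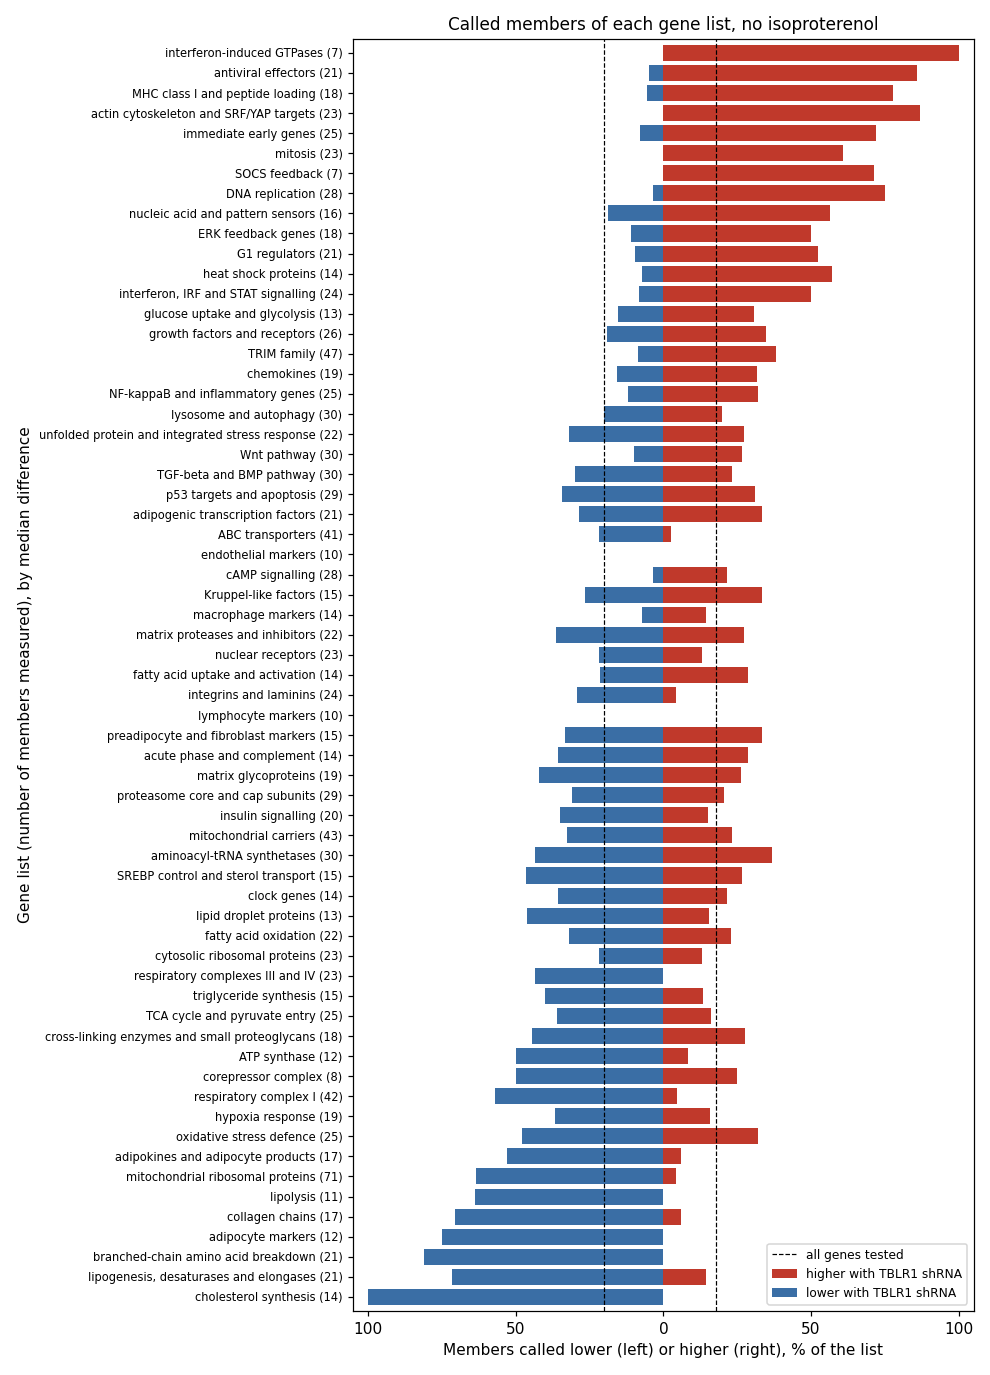
Bars give the percentage of each list's measured members that were called higher (right, red) or lower (left, blue) with TBLR1 shRNA, with the number measured in brackets and the lists ordered by median difference. The dashed lines mark all genes tested, 17.7% higher and 20.0% lower.

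Innate immunity gave the largest rises. Both groups received a virus and an shRNA, and the part of either in these rises was not tested. A cell recognises foreign nucleic acid through sensors such as MDA5 and TLR3, which switch on interferons through IRF factors. Interferon then acts through JAK kinases, STAT2 and IRF9 on interferon-stimulated response elements, and so raises antiviral effectors, guanylate-binding and immunity-related GTPases, the immunoproteasome and chemokines. The promoters of 3 genes from different steps are shown because each holds a match to this element, searched as GAAANNGAA on both strands and set in capitals. The sequences are RefSeq promoters on GRCm38.p6, from 250 bases before to 50 after the gene's start, 5′ to 3′ along the gene. Rsad2 lies at chr12:26456403-26456702, Ifih1 at chr2:62646206-62646505 and Cxcl10 at chr5:92348840-92349139, all on the minus strand.
Rsad2: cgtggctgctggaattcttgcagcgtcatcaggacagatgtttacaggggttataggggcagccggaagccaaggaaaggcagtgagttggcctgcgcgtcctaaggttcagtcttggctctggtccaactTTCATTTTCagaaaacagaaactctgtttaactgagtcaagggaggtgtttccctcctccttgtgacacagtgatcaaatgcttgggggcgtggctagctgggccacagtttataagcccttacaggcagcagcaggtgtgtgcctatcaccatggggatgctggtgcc
Ifih1: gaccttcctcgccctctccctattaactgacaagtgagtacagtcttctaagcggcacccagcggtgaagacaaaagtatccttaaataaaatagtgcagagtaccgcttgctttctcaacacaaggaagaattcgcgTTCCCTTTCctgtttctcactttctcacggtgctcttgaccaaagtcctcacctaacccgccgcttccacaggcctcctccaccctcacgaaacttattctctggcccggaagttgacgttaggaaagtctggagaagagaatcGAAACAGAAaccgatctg
Cxcl10: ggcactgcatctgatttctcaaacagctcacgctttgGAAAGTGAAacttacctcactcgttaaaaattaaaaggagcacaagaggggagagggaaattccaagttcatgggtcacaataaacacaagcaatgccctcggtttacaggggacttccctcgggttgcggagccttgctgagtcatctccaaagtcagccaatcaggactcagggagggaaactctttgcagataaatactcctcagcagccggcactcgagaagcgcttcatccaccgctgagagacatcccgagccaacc

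The match starts 119 bases before the start of Rsad2, 213 before that of Cxcl10 and 112 before that of Ifih1, which has a second match after its start. Of the 12273 genes with a RefSeq promoter, 8.44% held the motif. Among the antiviral effectors it was 7 of 17 (41.2%), namely Bst2, Eif2ak2, Ifit1, Ifitm2, Ifitm3, Oas3 and Rsad2, and among the 15 largest rises it was 4 of the 9 with a promoter. A narrower form with GAAA on both sides was held by 3.50% of all promoters and by the same number, 7 of 17, of the antiviral ones. A match describes letters and not binding.

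Among sensors 9 of 16 members rose and 3 fell. Ifih1, which encodes the double-stranded RNA sensor MDA5, read 9.29, 9.01 and 8.84 with control shRNA and 11.60, 11.46 and 11.27 with TBLR1 shRNA, and thus rose by 2.40 ± 0.10 or 5.26-fold (limma adjusted p = 6.77e-11). Zbp1, a sensor of Z-form nucleic acid, read 7.64, 7.62 and 7.20 against 9.77, 9.79 and 9.64, a rise of 2.24 ± 0.10 (limma adjusted p = 1.14e-10). Neither gene's groups came near each other. Dhx58, which encodes the RIG-I-like protein LGP2, rose by 1.44 ± 0.08, Ifi204, a DNA sensor, by 1.19 ± 0.20, and Sting1, the adaptor of cytosolic DNA sensing, by 0.88 ± 0.08. Tlr3, the endosomal sensor of double-stranded RNA, rose by 0.82 ± 0.09. The surface receptors for bacterial products went the other way: Tlr4, the lipopolysaccharide receptor, read 9.61, 9.52 and 9.46 against 9.18, 9.22 and 9.13 and fell by 0.35 ± 0.06, and Tlr2, which binds lipopeptides, fell by 0.23 ± 0.06. The Tlr2 call was lost without control replicate 2 (-0.15, limma adjusted p = 0.054) and with centring on hybridisation controls (adjusted p = 0.0715).

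Within the signalling layer Irf7 stood apart: 12 of 24 members rose and 2 fell, with a median of 0.11. Irf7, a transcription factor that amplifies interferon production and is itself induced by interferon, read 8.67, 8.61 and 8.52 against 10.88, 10.79 and 10.81, a rise of 2.23 ± 0.06 or 4.68-fold (limma adjusted p = 7.21e-13). Stat2 rose by 0.58 ± 0.06, the kinase gene Jak2 by 0.52 ± 0.05 and Irf9 by 0.48 ± 0.10. Ifnb1, which encodes interferon beta, read 6.42, 6.35 and 6.33 against 6.57, 6.60 and 6.59. It rose by 0.22 ± 0.04 (limma adjusted p = 6.64e-04), at a low level and with the groups apart. Ifngr1, a receptor chain for interferon gamma, fell by 0.46 ± 0.04 and Irf1, which that interferon induces, fell by 0.16 ± 0.04, a call that was lost with centring on hybridisation controls (adjusted p = 0.299).

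Most antiviral effectors rose. Of 21 measured members 18 rose and 1 fell, and the median difference was 1.13. Ifit2, a protein that hinders translation of viral RNA, had the largest rise of all genes: it read 8.14, 7.42 and 7.41 against 11.97, 11.96 and 11.77, which is 4.24 ± 0.15 or 18.9-fold (limma adjusted p = 9.87e-12). Rsad2, which encodes viperin, an enzyme that makes a chain-terminating nucleotide, read 9.06, 8.34 and 8.20 against 12.02, 11.77 and 11.66, a rise of 3.28 ± 0.19 or 9.72-fold (limma adjusted p = 1.53e-09). Control replicate 1 was the highest control array for both genes, and still lay far below every TBLR1 array. Without it the rises were 4.49 for Ifit2 and 3.55 for Rsad2. Oas2, a sensor enzyme that activates RNase L, rose 6.71-fold, its relative Oasl2 6.55-fold, and Bst2, which encodes tetherin and keeps budding virions on the cell, 5.65-fold. Herc6, a ligase for the ubiquitin-like protein ISG15, rose 4.13-fold. The response was not shared by all: Ifi27 read 13.14, 13.16 and 13.09 against 12.39, 12.43 and 12.46, a change of -0.70 ± 0.04, and Ifitm2, which blocks viral entry, differed by -0.04 ± 0.06 (limma adjusted p = 0.650).

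The interferon-induced GTPases, which attack the vacuoles of intracellular microbes, rose in all 7 cases, with a median of 1.44. Iigp1 read 10.81, 10.38 and 9.81 against 12.77, 12.61 and 12.55, a rise of 2.31 ± 0.17 or 4.97-fold (limma adjusted p = 2.16e-08). Igtp read 10.30, 9.58 and 9.47 against 11.59, 11.59 and 11.40, a rise of 1.74 ± 0.17. In Iigp1 and in Igtp control replicate 1 was again the highest control, and the groups did not overlap. Gbp7 rose 3.39-fold and Irgm1 2.71-fold. Of the TRIM proteins, a large family of ubiquitin ligases with many members in antiviral defence, 18 of 47 rose and 4 fell, led by Trim30a with 1.93 ± 0.13 and Trim30d with 1.44 ± 0.14. These neighbouring genes are close paralogs, and shared probes between them were not tested.

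Class I antigen presentation rose along its length, in 14 of 18 members with 1 fall and a median of 0.69. Psmb9, a catalytic subunit of the immunoproteasome, read 8.38, 8.44 and 8.32 against 10.93, 11.04 and 10.99, a rise of 2.61 ± 0.05 or 6.10-fold with tight replicates (limma adjusted p = 9.69e-15). Psmb8 and Psmb10, also such subunits, rose 4.05-fold and 1.90-fold. Tap1, a chain of the transporter that moves peptides into the endoplasmic reticulum, rose 2.30-fold. Among the presenting chains H2-M3 read 8.53, 8.38 and 8.45 against 10.11, 10.32 and 10.12 and rose 3.31-fold, while H2-D1 rose 1.98-fold from 13.01, 13.14 and 12.99. H2 genes resemble each other closely, so their probe sets may share signal. B2m, the common light chain, read 14.58 in all 3 TBLR1 arrays, which is the highest value of the table. Canx, a chaperone of the folding step, fell by 0.32 ± 0.05. Of the 29 core and cap subunits of the constitutive proteasome 6 rose and 9 fell, with a median of -0.04 that became 0.03 with centring on hybridisation controls.

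Chemokine genes went both ways. Ccl5, which attracts T cells and monocytes, read 9.56, 9.57 and 9.17 against 13.30, 13.34 and 13.21, a rise of 3.85 ± 0.10 or 14.4-fold (limma adjusted p = 3.20e-13). Cxcl10, an interferon-induced attractant of T cells, read 10.08, 9.42 and 9.23 against 12.82, 12.66 and 12.44 and rose 8.35-fold. Both changes were many times the spread between arrays. Ccl8 and Ccl2, which act on monocytes, rose by 1.45 ± 0.09 and 0.90 ± 0.07. The neutrophil attractants Cxcl1 and Cxcl5 fell by 0.37 ± 0.05 and 0.40 ± 0.09. In all 6 of 19 chemokines rose and 3 fell, a share of 47.4% called against 37.7% of all genes.

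Inflammatory genes under NF-kappaB did not move as one: 8 of 25 rose, 3 fell and the median was 0.03. That is a share of 44% called, against 37.7% of all genes. Il6 read 10.21, 10.14 and 9.49 against 11.24, 10.66 and 10.58 and rose by 0.88 ± 0.16, and Ptgs2, the inducible cyclooxygenase gene, rose by 0.79 ± 0.10. For both the highest value was that of TBLR1 replicate 1. Nfkbia, the inhibitor that NF-kappaB itself induces, read 12.03, 12.06 and 11.99 against 11.40, 11.39 and 11.42, a change of -0.62 ± 0.04 (limma adjusted p = 1.51e-09). Birc3, a ubiquitin ligase of the same feedback, fell by 0.70 ± 0.06 and Tnfaip3 by 0.31 ± 0.06. Tnf was low and differed by 0.05 ± 0.06 (limma adjusted p = 0.603). Of the 7 suppressors of cytokine signalling measured 5 rose, led by Socs5 with 0.81 ± 0.10 and Cish with 0.48 ± 0.07, whereas Socs1 differed by -0.01 ± 0.06 (limma adjusted p = 0.955). Of complement and acute phase genes 4 of 14 rose and 5 fell, the largest change being Cfb, complement factor B, with 1.33 ± 0.07.

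Of 14 macrophage markers, most of them at low levels, 2 rose, 1 fell and 11 were not called (21.4% called). Their median control level was 6.20, and of the 5089 genes of lowest level (5.47 to 6.48) 3.81% rose and 2.93% fell. Cd14 was the one called marker that was well expressed. The mean level of the 14 was 6.34 to 6.39 in the control arrays and 6.39 to 6.41 in the TBLR1 arrays. Cd14, a lipopolysaccharide co-receptor that adipocytes can also express, read 8.90, 8.99 and 8.70 against 9.40, 9.38 and 9.16 and rose by 0.45 ± 0.09. Adgre1, which encodes the macrophage antigen F4/80, read 5.89, 6.03 and 5.92 against 6.03, 6.04 and 6.11, near the floor of the table (limma adjusted p = 0.0607, or 0.0183 without control replicate 2). Across all genes that rose by 2-fold or more, 32 of 112 (28.6%) were members of the 10 lists of immune genes described above (macrophage markers not among them), which hold 197 (1.29%) of all genes. The lists were written with earlier results of these data known, so these shares describe the lists and test nothing.

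**Figure D3:**
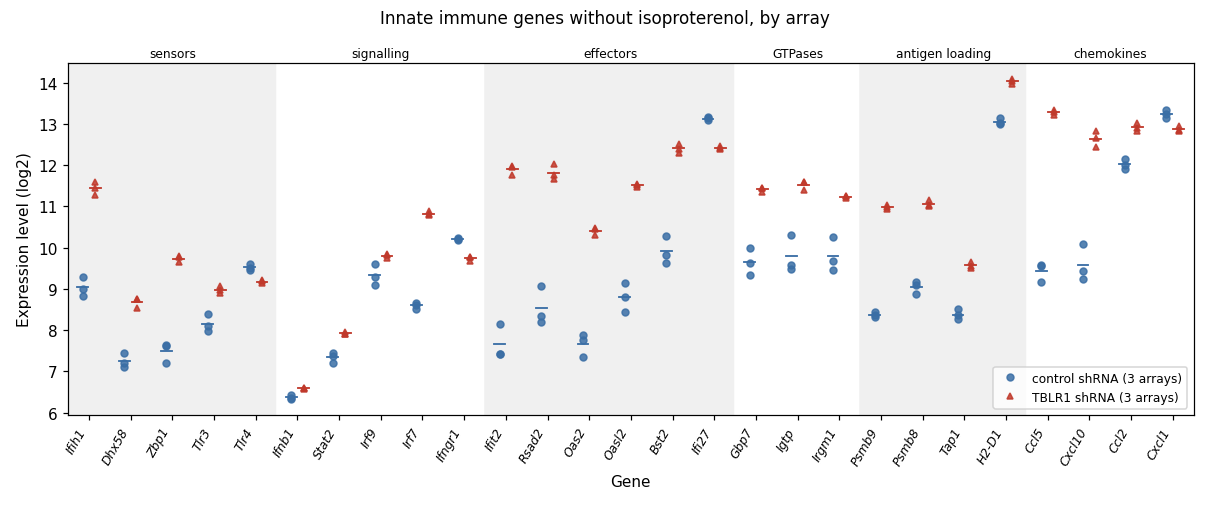
Expression level (log2) of innate immune genes in the 3 control shRNA arrays (blue circles) and the 3 TBLR1 shRNA arrays (red triangles), with bars at the means and genes grouped by role. The effector and antigen-loading genes drawn lie above their controls except Ifi27, and Tlr4, Ifngr1 and Cxcl1 lie below theirs.

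Cholesterol synthesis fell as a whole. The pathway turns acetyl units into mevalonate, squalene and lanosterol and then trims lanosterol to cholesterol, and its genes are driven together by SREBP2, which acts with the CCAAT-binding factor NF-Y. The promoters of 2 enzymes with large falls are shown, with the CCAAT box, searched on both strands, in capitals. Hsd17b7 lies at chr1:169969156-169969455 and Cyp51 at chr5:4104648-4104947 on GRCm38.p6 (RefSeq), both on the minus strand.
Hsd17b7: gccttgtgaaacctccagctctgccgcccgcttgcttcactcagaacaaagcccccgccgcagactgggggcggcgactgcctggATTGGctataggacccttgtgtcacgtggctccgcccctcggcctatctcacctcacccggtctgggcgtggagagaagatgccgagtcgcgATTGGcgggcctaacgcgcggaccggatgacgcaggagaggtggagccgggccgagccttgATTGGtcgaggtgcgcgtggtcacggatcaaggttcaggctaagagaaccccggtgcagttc
Cyp51: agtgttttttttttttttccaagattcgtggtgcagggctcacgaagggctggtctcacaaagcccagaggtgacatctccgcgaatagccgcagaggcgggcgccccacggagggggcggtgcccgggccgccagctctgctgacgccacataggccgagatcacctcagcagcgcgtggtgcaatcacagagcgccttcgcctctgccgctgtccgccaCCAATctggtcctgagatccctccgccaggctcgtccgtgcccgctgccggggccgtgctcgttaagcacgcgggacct

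The Hsd17b7 promoter held 3 boxes, the first 165 and the last 12 bases before the start, and that of Cyp51 held 1, at 29 bases. A CCAAT box was present in all 12 of the cholesterol genes with a promoter, against 42.2% of all promoters. In sets that mostly rose it was in 15 of 24 DNA replication promoters (62.5%) and 5 of 17 antiviral promoters (29.4%). Among the 15 largest rises it was in 5 of the 9 with a promoter (55.6%). The sterol regulatory element in the form TCACNCCAC was in 0 of the 12 cholesterol promoters and in 1.44% of all promoters, so these letters were not in the windows. Other forms of the element were not searched.

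All 14 measured cholesterol genes fell, with a median of -0.97. Hsd17b7, which reduces a sterol ketone while methyl groups are trimmed, read 9.68, 9.75 and 9.70 against 8.23, 8.19 and 8.36, a change of -1.45 ± 0.05 or 2.73-fold (limma adjusted p = 9.87e-12). Cyp51, which removes the first methyl group from lanosterol, read 10.49, 10.50 and 10.50 against 9.13, 9.12 and 9.32 and fell 2.47-fold. Their groups were separated by more than 1 log2 unit. Tm7sf2, a sterol reductase, fell 2.46-fold, Nsdhl, a decarboxylating dehydrogenase, 2.22-fold, and Msmo1, a methyl oxidase, 2.05-fold. The fall was not limited to the late steps: Pmvk, phosphomevalonate kinase, read 10.86, 10.88 and 10.85 against 9.79, 9.80 and 9.82 and fell 2.08-fold. Squalene epoxidase, Sqle, fell 1.71-fold and the cyclase Lss 1.99-fold.

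The regulators of sterol synthesis moved in both directions, 4 of 15 up and 7 down, with a median of -0.06 that became 0.01 with centring on hybridisation controls. Srebf2, which encodes SREBP2, read 8.16, 8.21 and 8.18 against 8.18, 8.10 and 8.10, groups that overlapped (difference -0.06 ± 0.04, limma adjusted p = 0.349). Srebf1 rose by 0.42 ± 0.05 and Scap, the escort that carries SREBPs to the Golgi, by 0.38 ± 0.04. Insig1, which retains that escort and is itself a SREBP target, read 11.77, 11.72 and 11.50 against 10.87, 10.77 and 11.04 and fell by 0.77 ± 0.08. Stard4, a carrier of cholesterol between membranes, fell by 0.84 ± 0.06. Mylip, the ligase that degrades the LDL receptor and is induced by LXR, fell by 0.84 ± 0.08, and Nr1h3, which encodes LXRα, by 0.43 ± 0.06.

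Fatty acid synthesis fell in most members: 15 of 21 fell, 3 rose and the median was -0.55. Acss2, which makes acetyl-CoA from acetate, read 11.59, 11.61 and 11.64 against 10.31, 10.39 and 10.54 and fell 2.30-fold (limma adjusted p = 2.98e-10). Fasn, fatty acid synthase, read 12.78, 12.89 and 12.90 against 12.21, 12.08 and 12.11 and fell 1.65-fold. Neither gene's groups overlapped. Me1, which supplies NADPH, fell 1.71-fold, Elovl6, an elongase of saturated chains, 1.68-fold, Thrsp, a lipogenic regulator, 1.73-fold, and Fads2, the delta-6 desaturase, 1.97-fold. Slc25a1, which exports citrate from mitochondria, fell 1.61-fold, and Slc25a10, the dicarboxylate carrier, 1.94-fold. The genes that went against the list were Elovl5, an elongase of polyunsaturated chains, at 10.73, 10.69 and 10.84 against 11.40, 11.42 and 11.51, a rise of 0.69 ± 0.05, and Fads3, with a rise of 0.44 ± 0.05.

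Esterification and storage changed step by step. Of 15 triglyceride synthesis genes 2 rose and 6 fell (53.3% called, against 37.7% of all genes). The median was -0.08, or -0.006 with centring on hybridisation controls. Gpat3, which starts glycerolipid synthesis in fat cells, read 10.78, 10.77 and 10.85 against 10.01, 10.03 and 9.95, a change of -0.80 ± 0.04 or 1.75-fold (limma adjusted p = 6.55e-10), whereas Dgat2, which adds the last acyl chain, differed by -0.08 ± 0.04 (limma adjusted p = 0.201). Pck1, which feeds glycerol synthesis, rose by 0.54 ± 0.08. Acsl3, an acyl-CoA synthetase of droplet growth, fell by 0.96 ± 0.05, while 4 of 14 genes of fatty acid uptake and activation rose and 3 fell (50% called).

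Droplet coat genes moved in both directions, 2 of 13 rising and 6 falling, with a median of -0.06 that was 0.01 with centring on hybridisation controls. Cidec, which fuses droplets into large ones, read 12.99, 12.92 and 13.03 against 12.15, 12.15 and 12.20, a change of -0.82 ± 0.05 or 1.76-fold (limma adjusted p = 3.47e-09). Plin2, the coat protein of small droplets, read 13.35, 13.44 and 13.55 against 13.95, 13.92 and 13.85 and rose by 0.46 ± 0.05. The groups of both genes were apart, in opposite directions. Hilpda, an inhibitor of adipose triglyceride lipase, rose by 0.54 ± 0.06, and Angptl4, an inhibitor of lipoprotein lipase, rose by 0.59 ± 0.05.

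Lipolysis, the release of fatty acids from stored fat, had 7 of 11 genes down and none up in the limma test (1 was higher at an unadjusted p under 0.05). Lipe, hormone-sensitive lipase, read 11.43, 11.51 and 11.51 against 10.96, 10.92 and 10.89 and fell by 0.56 ± 0.06 or 1.48-fold (limma adjusted p = 6.39e-07). Pnpla2, adipose triglyceride lipase, read 11.58, 11.59 and 11.55 against 11.24, 11.28 and 11.17 and fell 1.27-fold. Both lipases were thus lower in every TBLR1 array before any beta-adrenergic stimulus. Ces1f, a carboxylesterase, fell 1.75-fold, Pde3b, the phosphodiesterase through which insulin lowers cyclic AMP, 1.32-fold, and Prkar2b, a regulatory subunit of protein kinase A, 1.26-fold. Mgll, the last lipase of the chain, differed by -0.15 ± 0.08 with overlapping groups (limma adjusted p = 0.168), and without control replicate 2 by -0.25 (limma adjusted p = 0.0211).

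Genes of fatty acid breakdown moved both ways. Of 22 fatty acid oxidation genes 5 rose and 7 fell (54.5% called, against 37.7% of all genes). The median was -0.07, or 0.00 with centring on hybridisation controls. Cpt1a, the gate for entry of long chains into mitochondria, read 7.72, 7.55 and 7.59 against 8.80, 8.80 and 8.79, a rise of 1.18 ± 0.06 or 2.26-fold (limma adjusted p = 6.22e-10). Inside the mitochondrion Acadm, medium-chain dehydrogenase, fell by 0.47 ± 0.04 and Etfdh, which passes the electrons on, rose by 0.42 ± 0.05. Genes of glucose entry diverged: Slc2a1, the basal transporter GLUT1, rose 1.93-fold from 10.48, 10.36 and 10.61 to 11.73, 11.34 and 11.23, while Slc2a4, the insulin-responsive GLUT4, read 9.72, 9.77 and 9.86 against 9.45, 9.51 and 9.46 and fell 1.24-fold. Ldhb, a lactate dehydrogenase subunit, rose 1.66-fold.

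Mitochondrial genes of several kinds were lower. Of 21 enzymes that break down branched-chain amino acids 17 fell and none rose in the limma test (0 were higher at an unadjusted p under 0.05), with a median of -0.33. Pccb, propionyl-CoA carboxylase, read 9.47, 9.53 and 9.60 against 8.55, 8.60 and 8.65, a change of -0.93 ± 0.05 or 1.91-fold (limma adjusted p = 4.85e-10). Hibch and Aldh6a1, of valine breakdown, fell 1.66-fold and 1.63-fold, and Bckdhb, of the shared dehydrogenase, 1.52-fold. Of the TCA cycle and pyruvate entry 9 of 25 genes fell and 4 rose (52% called, against 37.7% of all genes). The median was -0.08, or -0.01 with centring on hybridisation controls. The list's median control level was 11.39, and of the 5088 genes of highest level 36.1% fell. Fh1, fumarase, fell by 0.59 ± 0.04 and Pcx, pyruvate carboxylase, by 0.64 ± 0.04. Idh2, isocitrate dehydrogenase, rose by 0.73 ± 0.05 and Pdk4, which shuts pyruvate dehydrogenase, by 0.66 ± 0.07.

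The mitochondrial ribosome fell in 45 of 71 members with 3 rises (67.6% called, against 37.7% of all genes). The median was -0.19, or -0.12 with centring on hybridisation controls. Mrpl34 read 10.32, 10.30 and 10.32 against 9.49, 9.60 and 9.58, a change of -0.76 ± 0.04, well outside the spread of either group, and Mrps21 fell by 0.64 ± 0.06. Of 42 complex I subunits and assembly factors 24 fell and 2 rose (61.9% called), led by the assembly factor Ndufaf7 with -0.57 ± 0.04. The median was -0.15, or -0.08 with that centring. Median control levels were 10.31 for the mitochondrial ribosome and 12.02 for complex I, and of the 5088 genes of highest level 36.1% fell. The subunit Ndufs1 fell by 0.46 ± 0.04. Cytosolic ribosomal proteins gave 3 rises and 5 falls of 23, a share of 34.8% called that is near the 37.7% of all genes. Whether the lists differ from each other was not tested. Among mitochondrial carriers the largest rise was Slc25a37, the iron importer mitoferrin, at 7.52, 7.40 and 7.27 against 9.02, 8.65 and 8.64, or 2.58-fold.

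Adipocyte markers were lower by modest amounts: 9 of 12 fell, none rose in the limma test (0 were higher at an unadjusted p under 0.05), and the median was -0.28. Pparg, the master regulator of fat cell differentiation, read 12.62, 12.71 and 12.64 against 12.24, 12.35 and 12.39 and fell by 0.33 ± 0.05 (limma adjusted p = 4.47e-05). Adipoq fell by 0.17 ± 0.04 from near the ceiling of the scale and was not called with centring on hybridisation controls (adjusted p = 0.230). Fabp4, also near the ceiling, differed by -0.02 ± 0.04 (limma adjusted p = 0.728). Retn, which encodes the secreted factor resistin, changed far more: it read 13.08, 12.83 and 12.77 against 11.23, 11.45 and 11.25, a change of -1.58 ± 0.09 or 3.00-fold (limma adjusted p = 1.17e-09). Agt, angiotensinogen, fell 2.20-fold and Car3, carbonic anhydrase 3, 2.13-fold. Among adipogenic factors 7 of 21 rose and 6 fell, with no common direction. Klf15 fell by 0.51 ± 0.06, while Klf5 rose by 0.85 ± 0.12. Of the early factors Cebpb and Cebpd, the first rose by 0.41 ± 0.04 and the second fell by 0.33 ± 0.08.

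Preadipocyte and fibroblast markers, which a culture with undifferentiated cells would also carry, moved both ways: 5 of 15 rose and 5 fell, with a median of -0.03 that was 0.02 after cyclic loess and 0.04 with centring on hybridisation controls. Thy1, a fibroblast surface protein, read 8.62, 8.74 and 8.75 against 9.62, 9.55 and 9.51, a rise of 0.86 ± 0.05, and Twist1 rose by 0.93 ± 0.08. Dlk1, the preadipocyte factor that is lost on differentiation, read 10.87, 11.09 and 10.97 against 10.33, 10.17 and 10.24 and fell by 0.73 ± 0.07. S100a4, a fibroblast marker, fell by 0.70 ± 0.05. The mean level of the 15 was 8.44 to 8.47 in control and 8.48 to 8.54 in TBLR1 arrays, and the part of cell composition in the fall of fat cell genes was not tested.

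**Figure D4:**
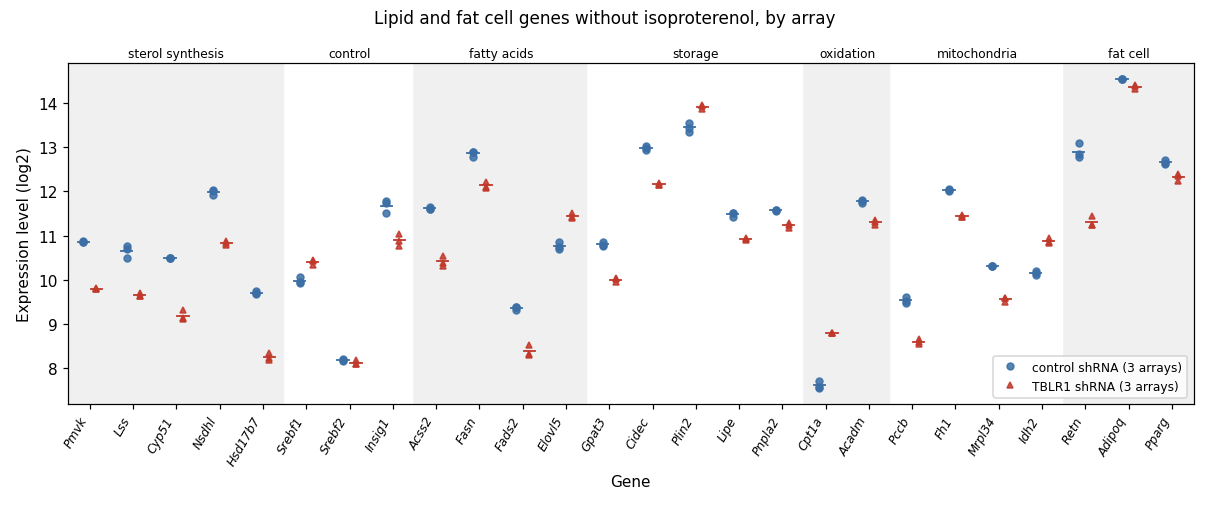
Expression level (log2) of lipid, mitochondrial and fat cell genes in the 3 control shRNA arrays (blue circles) and the 3 TBLR1 shRNA arrays (red triangles), with bars at the means. The sterol synthesis genes lie lower with TBLR1 shRNA in every array, while Srebf1, Elovl5, Plin2, Cpt1a and Idh2 lie higher.

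Immediate early genes, which growth factors and stress switch on within minutes through ERK and SRF, were higher in resting cells with TBLR1 shRNA. Of 25 members 18 rose and 2 fell, with a median of 0.46. Egr1, a zinc-finger factor, read 9.88, 10.00 and 9.55 against 12.92, 12.48 and 12.31, a rise of 2.76 ± 0.13 or 6.77-fold (limma adjusted p = 1.71e-10). Fos read 8.22, 8.18 and 7.96 against 10.22, 9.63 and 9.58 and rose 3.23-fold. Egr2 rose 3.37-fold, Myc 2.48-fold, Klf6 2.41-fold and Nr4a1 2.32-fold, whereas Klf2 fell by 0.23 ± 0.07, a call that was lost with centring on hybridisation controls (adjusted p = 0.0734). TBLR1 replicate 1 was the highest array for each of the 6 genes that rose here, and control replicate 3 was the lowest control array for each. Without TBLR1 replicate 1 the rise was 2.58 for Egr1 (limma adjusted p = 2.49e-10) and 1.49 for Fos (limma adjusted p = 7.47e-09).

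The feedback genes that ERK induces against itself rose in 9 of 18 cases and fell in 2. Dusp6, a phosphatase specific for ERK, read 8.18, 8.48 and 7.92 against 10.79, 10.28 and 10.19, a rise of 2.23 ± 0.13 or 4.68-fold (limma adjusted p = 2.51e-09). Dusp5, a nuclear phosphatase of ERK, rose 2.30-fold, and Errfi1, an inhibitor of EGF receptor kinases, 1.75-fold. Dusp1, which acts on p38 and JNK as well, read 9.08, 9.28 and 9.12 against 9.36, 8.86 and 8.85, groups that overlapped (limma adjusted p = 0.340). Without TBLR1 replicate 1, the high array of its group, Dusp1 was called lower, with -0.31 (limma adjusted p = 0.00151). Among ligands Ereg, epiregulin, rose by 1.13 ± 0.23 and Hbegf by 0.74 ± 0.12, while Egfr, their receptor, fell by 0.39 ± 0.05. Of 26 growth factor and receptor genes 9 rose and 5 fell, a share of 53.8% called against 37.7% of all genes.

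Genes of DNA replication rose in 21 of 28 cases with 1 fall and a median of 0.22. Mature adipocytes are known as post-mitotic cells. The promoter of Mcm6, the member with the largest rise, is shown with its match to the E2F motif TTTCGCGC (both strands) in capitals, at chr1:128359656-128359955 on the minus strand of GRCm38.p6 (RefSeq).
Mcm6: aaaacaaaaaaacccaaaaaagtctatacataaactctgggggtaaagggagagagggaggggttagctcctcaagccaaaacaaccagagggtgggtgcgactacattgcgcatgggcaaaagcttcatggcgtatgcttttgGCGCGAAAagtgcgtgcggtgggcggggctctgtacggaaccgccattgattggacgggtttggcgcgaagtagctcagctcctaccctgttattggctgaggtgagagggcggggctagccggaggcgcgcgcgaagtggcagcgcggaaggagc

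The match starts 106 bases before the gene. It was held by 7 of the 24 replication genes with a promoter (29.2%), namely Lig1, Mcm5, Mcm6, Mcm7, Orc1, Rfc3 and Uhrf1, and by 0.603% of all promoters. Of these 7 genes Mcm7 was the one that was not called. Mcm6, a subunit of the replicative helicase, read 8.03, 7.89 and 7.90 against 8.83, 8.96 and 8.93, a rise of 0.97 ± 0.05 or 1.96-fold (limma adjusted p = 8.05e-10). Rrm2, which makes deoxynucleotides, read 8.11, 7.99 and 8.01 against 8.83, 8.76 and 8.71 and rose 1.66-fold. The 3 control arrays of each gene lay together below the 3 TBLR1 arrays. Rfc4, a clamp loader subunit, was the single fall, by 0.33 ± 0.05.

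Mitotic genes rose in 14 of 23 cases with no fall called by limma (0 were lower at an unadjusted p under 0.05). Tpx2, a spindle protein, rose by 0.63 ± 0.04, Bub1, a checkpoint kinase, by 0.49 ± 0.06, and Ccna2, cyclin A2, by 0.47 ± 0.06. Their levels stayed low to intermediate, with a median control level of 7.60 for the list. Melk, a kinase of dividing cells outside the list, read 7.69, 7.35 and 7.30 against 9.44, 9.67 and 9.68 and rose 4.43-fold. Upstream, Ccnd3, a cyclin that opens G1, read 8.40, 8.45 and 8.46 against 9.27, 9.33 and 9.28 and rose 1.81-fold, Ccnd1 rose 1.61-fold, and E2f7, an E2F-induced repressor of E2F targets, 1.82-fold. In all 11 of 21 G1 regulators rose and 2 fell.

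Targets of p53 and apoptosis genes divided, with 9 of 29 up and 10 down. Cdkn1a, the inhibitor p21, read 10.86, 11.05 and 10.87 against 10.35, 10.19 and 10.10, a change of -0.71 ± 0.06 or 1.64-fold (limma adjusted p = 1.15e-07). Among the other falls Sesn1, a stress-induced inhibitor of mTORC1, fell 1.82-fold, Zmat3, an RNA-binding target of p53, 1.65-fold, and Ccng1 and Trp53inp1 1.63-fold each. Every TBLR1 array lay below every control array in these 5 genes. Mdm2, a p53 target and its main inhibitor, read 13.50, 13.57 and 13.51 against 13.60, 13.50 and 13.51 and was not called (limma adjusted p = 0.909). Plk2, a polo-like kinase and p53 target, rose by 0.57 ± 0.11. Mlkl, the pore former of necroptosis, rose by 1.07 ± 0.07 and its activating kinase gene Ripk3 by 0.65 ± 0.06.

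Actin genes and other targets of SRF and YAP rose in 20 of 23 cases, with no fall called by limma (0 were lower at an unadjusted p under 0.05) and a median of 0.49. Acta2, smooth muscle actin, read 11.41, 11.37 and 11.31 against 12.64, 12.67 and 12.65, a rise of 1.29 ± 0.05 or 2.44-fold (limma adjusted p = 3.49e-11). Tagln, an actin-binding protein of contractile cells, read 8.67, 8.78 and 8.79 against 10.03, 10.02 and 10.01 and rose 2.41-fold. In these genes, unlike the immediate early ones, the 3 TBLR1 arrays were nearly level. Ccn2, a matricellular YAP target, rose 2.04-fold and Tpm4, a tropomyosin, 1.85-fold.

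The matrix changed in kind. Collagen chains fell in 12 of 17 cases with 1 rise and a median of -0.24. Col11a1 read 8.60, 8.64 and 8.57 against 7.25, 7.34 and 7.39 and fell 2.42-fold, and Col3a1, at 14.15, 14.18 and 14.21 against 13.58, 13.55 and 13.55, fell 1.54-fold. Lox, which cross-links collagen and elastin, had the largest fall of all called genes with separate groups: it read 9.98, 10.19 and 10.21 against 8.36, 8.29 and 8.42, a change of -1.77 ± 0.08 or 3.41-fold (limma adjusted p = 1.19e-10). Its relative Loxl3 read 7.69, 7.65 and 7.87 against 9.99, 9.95 and 9.83 and rose 4.56-fold. The 2 cross-linkers thus moved apart by more than any spread between their arrays. Lum, lumican, a proteoglycan that spaces collagen fibrils, fell 2.32-fold, and Dcn, decorin, 1.58-fold.

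Matrix glycoproteins moved both ways. Thbs1, thrombospondin 1, read 8.28, 8.38 and 8.05 against 10.85, 10.22 and 10.42, a rise of 2.26 ± 0.13 or 4.79-fold, and Tnc, tenascin C, rose 2.43-fold. Of all 19 members 5 rose and 8 fell, and Postn, periostin, fell by 0.35 ± 0.06. Mmp2, a gelatinase, read 11.43, 11.53 and 11.46 against 10.31, 10.38 and 10.33 and fell 2.20-fold, while the inhibitors Timp1 and Timp3 rose 2.22-fold and 2.06-fold. Timp2, another inhibitor, fell by 0.50 ± 0.07, so the inhibitors did not move as one. Plat, tissue plasminogen activator, rose by 0.99 ± 0.06.

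**Figure D5:**
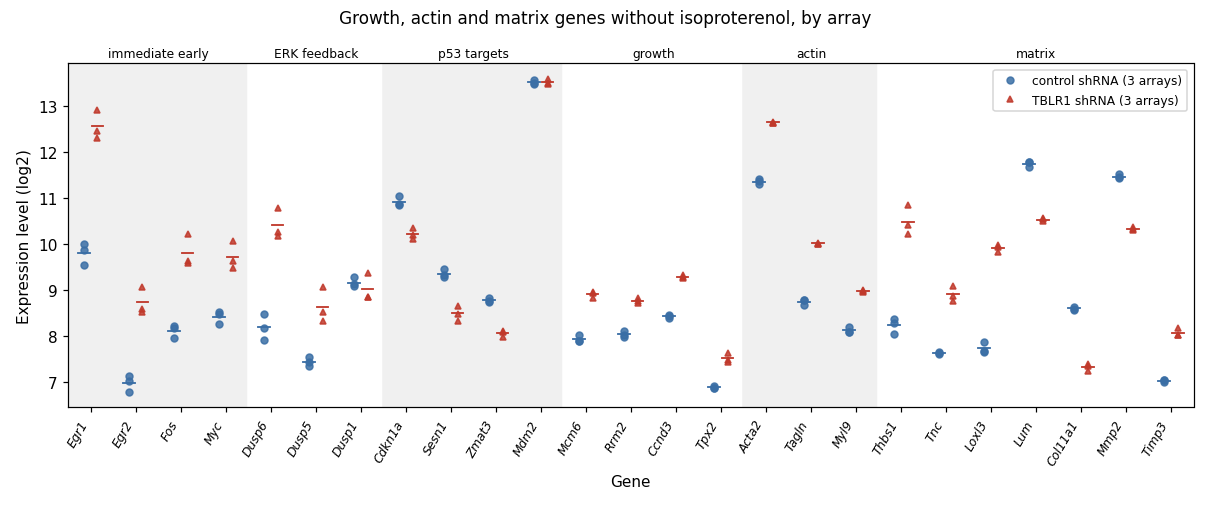
Expression level (log2) of immediate early, ERK feedback, p53, growth, actin and matrix genes in the 3 control shRNA arrays (blue circles) and the 3 TBLR1 shRNA arrays (red triangles), with bars at the means. TBLR1 replicate 1 gives the highest triangle for Egr1, Egr2, Fos, Myc, Dusp5 and Dusp6, while the triangles of Acta2 and Tagln nearly coincide.

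Signalling genes of the TGF-beta and BMP pathways went both ways, 7 of 30 up and 9 down (53.3% called). Id3, an inhibitor of differentiation induced by BMPs, read 7.54, 7.65 and 7.45 against 9.83, 9.31 and 9.09 and rose 3.63-fold, whereas its relative Id1 fell by 0.26 ± 0.07. Smad1 rose by 0.81 ± 0.06 and Smad5, which carries the same BMP signal, fell by 0.65 ± 0.04. In the Wnt pathway 8 of 30 rose and 3 fell, and this share called (36.7%) was near the 37.7% of all genes. The Wnt-induced Ccn4 and Ccn5 were up by 0.85 ± 0.06 and 0.83 ± 0.06 while the coreceptor gene Lrp6 fell by 0.49 ± 0.05. Of insulin signalling genes Igf1 fell by 0.54 ± 0.05 and Igf2 by 0.71 ± 0.05, while Igfbp3, which binds both factors, rose by 0.89 ± 0.07.

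Stress genes differed by group. The unfolded protein and integrated stress response gave 6 rises and 7 falls of 22, and among them Ddit3, the factor CHOP, rose by 0.50 ± 0.05 while Dnajc3, an inhibitor of the kinase PERK, fell by 0.67 ± 0.04. Of 14 heat shock protein genes 8 rose and 1 fell, with a median of 0.15. Of 25 genes of oxidative stress defence 12 fell and 8 rose, and Gstm1, a glutathione transferase, fell by 0.56 ± 0.04 while Gclc, which starts glutathione synthesis, rose by 0.47 ± 0.08. Aminoacyl-tRNA synthetases gave 11 rises and 13 falls of 30. Cytosolic Rars rose by 0.31 ± 0.04 and its mitochondrial counterpart Rars2 fell by 0.33 ± 0.04. Of 28 genes of cyclic AMP signalling, through which isoproterenol acts, 6 rose and 1 fell, which is 25.0% called and below the 37.7% of all genes.

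Outside every list the largest rises were Ly6e, Frmd4a, Mpeg1, Plscr2, Melk and Ifi47. Ly6e, an interferon-induced membrane protein, read 10.65, 10.84 and 10.29 against 13.14, 13.19 and 13.05 and rose 5.80-fold. Mpeg1, the pore-forming protein perforin-2, read 7.49, 7.51 and 7.19 against 9.59, 9.82 and 9.68 and rose 4.92-fold. Ifi47, an interferon-induced GTPase, rose 4.02-fold, Plscr2, a scramblase family member, 4.51-fold, and Frmd4a, a polarity scaffold, 5.73-fold. The largest falls were Snai2, Bicc1, Gem, Nrn1, Pon2 and Aldh1a7. Snai2, the repressor SLUG, read 10.36, 10.44 and 10.52 against 8.61, 8.85 and 8.91 and fell 3.14-fold. Bicc1, an RNA-binding protein, fell 3.12-fold, Gem, a small GTPase, 2.85-fold, and Pon2, a mitochondrial lactonase, 2.57-fold. For each of these 12 genes the groups were separate.

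The effect of the TBLR1 shRNA at rest differed from that under isoproterenol for 366 genes, 2.40% of those tested. This number was 221 to 237 when control replicate 2, TBLR1 replicate 2 or TBLR1 replicate 3 was left out. Pck1, phosphoenolpyruvate carboxykinase, rose by 0.54 at rest, at 7.93, 7.78 and 7.94 against 8.44, 8.40 and 8.42, and fell by 1.03 with isoproterenol (limma adjusted p of the difference = 1.62e-06). Irs2, an insulin receptor substrate, rose by 0.54 at rest, and its difference with isoproterenol was -0.88 (limma adjusted p of the difference = 1.37e-05). Fos rose by 1.69 at rest and by 0.40 with isoproterenol (limma adjusted p of the difference = 0.00108). For Nr4a1 the values were 1.21 and 0.03 (limma adjusted p of the difference = 5.30e-05), while for Egr1 they were 2.76 and 2.50 and did not differ at this threshold (limma adjusted p of the difference = 0.590). Ppargc1a, the coactivator PGC-1α, rose by 0.29 at rest and differed by -0.80 with isoproterenol (limma adjusted p of the difference = 1.95e-05). Of the 25 immediate early genes 9 were called for this difference (15 at an unadjusted p under 0.05), of the 21 adipogenic factors 7 (11), of the 22 unfolded protein and integrated stress genes 7 (9), of the 14 clock genes 4 (6) and of the 19 hypoxia genes 4 (6). Of the 47 TRIM genes it was 4, and every other list had at most 3. None of 21 antiviral effectors and none of 14 cholesterol genes was called for it in the limma test (5 and 2 at an unadjusted p under 0.05). No test compared the lists.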

How the data were processed

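The files hold Affymetrix expression arrays of 12 samples of 3T3-L1 adipocytes, 3 in each of 4 groups. The authors deposited 1 log2 value per probe set and array. That it is log2 was read from its range, and sorted values of different arrays lay within 0.00781 of each other, which shows that the authors had equalised the distributions (quantile normalisation). Software, background correction and probe summary: not given in the sources used here. A shift common to most transcripts would be lost in this step.

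From the 16553 probe sets, 61 controls and 1222 without a symbol in the platform annotation, which can be old, were set aside. Where 2 probe sets shared a gene (3 genes), the brighter was kept. Every one of the 15270 named probe sets matched a RefSeq gene.

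Group means and a shared spread were estimated by limma 3.58.1 (R 4.3.3) from the 12 arrays, with 8 residual and 7.38 prior degrees of freedom. The contrasts were TBLR1 against control shRNA without isoproterenol, the same with isoproterenol, and their difference. P-values are two-sided with Benjamini-Hochberg adjustment over 15267 genes.

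The gene lists and the genes named were chosen with earlier results of these data known. The rule took the corepressor list, the 15 largest rises and falls with separate groups, up to 6 called members per list with up to 2 against its median, the 6 largest changes outside lists in each direction and the 10 largest differences between the shRNA effects. Adipoq, Ptprc, Pecam1, Adgre1, Tlr3, Ifnb1, Ifitm2, B2m, Tnf, Socs1, Sqle, Lss, Srebf2, Dgat2, Mgll, Fabp4, Dusp1, Mdm2, Ripk3, Plk2, Postn and the genes named for a promoter motif alone lie outside it and were named after their values were seen. Promoters came from RefSeq (GRCm38.p6). Motif letters were searched on both strands, and overlaps between motifs were not removed. Alternatives were other scalings, model settings, filters and thresholds, and leaving out each array. Plots were drawn with matplotlib 3.10.9.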

Additional observations from a re-analysis of the deposited data

Results flagged for a closer look

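For 24 of the genes named in the text the TBLR1 shRNA effect differed between arrays with and without isoproterenol in the interaction test of the limma model, with adjusted p between 1.62e-06 and 0.0479. The difference of the effects (log2, with minus without isoproterenol) was above 0 for 10 genes: 1.13 for Cxcl10, 0.35 for Stat2, 0.30 for Jak2, 0.55 for Ccl5, 0.64 for Klf6, 0.81 for Errfi1, 0.73 for Hbegf, 0.23 for Mcm7, 0.73 for Ddit3 and 0.61 for Snai2. It was below 0 for 14 genes: -1.57 for Pck1, -0.38 for Hilpda, -0.77 for Pdk4, -0.25 for Mrpl34, -0.60 for Cebpb, -1.29 for Fos, -1.18 for Nr4a1, -0.77 for Dusp6, -0.56 for Tpm4, -1.42 for Irs2, -1.09 for Ppargc1a, -0.31 for Rora, -1.07 for Nfil3 and -0.52 for Vegfa.

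The sign of the estimate turned for Pck1, Pdk4, Cebpb, Irs2, Ppargc1a and Nfil3, which rose without isoproterenol and had estimates below 0 with it (-1.03, -0.11, -0.19, -0.88, -0.80 and -0.59). That of Pdk4 lay closest to 0. The interaction test does not ask whether the effect with isoproterenol is itself below 0. Among the 1222 probe sets that have no gene symbol here, 377 were called without isoproterenol, 181 higher and 196 lower with TBLR1 shRNA. They entered no comparison of named genes.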

How the results depend on the processing

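The number of genes called for TBLR1 shRNA without isoproterenol was 5756 and lay between 4437 and 6101 under all alternatives but one: tested against a 1.2-fold change it was 1231, since that test asks for more than a nonzero difference. With isoproterenol the same test gave 1696 in place of 6372. The difference between the 2 effects was called for 366 genes, for 132 at an adjusted p under 0.01 and for 21 against a 1.2-fold change. Leaving out 1 array at a time gave 5177 to 5328 genes without isoproterenol, 6288 to 6373 with it and 221 to 385 for the difference (235 without control replicate 2, 221 without TBLR1 replicate 2 and 237 without TBLR1 replicate 3). A replicate block, although same-numbered arrays without isoproterenol did not deviate together (correlations of -0.037 to 0.067), gave 5623 genes without isoproterenol, 6279 with it and 320 for the difference. Cyclic loess gave 53.4% of called genes higher, and centring on hybridisation controls 66.6% without and 75.0% with isoproterenol, where it also moved the median of all genes to 0.10. The median was above 0 in 25 of 63 lists as deposited and in 45 with that centring, which changed the sign of 20 list medians. The direction of no named gene with a call reversed. Of 49 genes whose call changed under an alternative most lost it against a 1.2-fold change. The share of antiviral promoters with the interferon motif stayed at 41.2% in the narrower form. The scale ends at 14.58, near the values of B2m, Adipoq and Fabp4.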

Other observations

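Several groups of genes that the comparisons above did not describe held single large changes, while the share called in some was near or below the 37.7% of all genes. Of 41 ABC transporters 9 fell and 1 rose, a share of 24.4% called. Abca8a, a transporter of the sterol-related A subfamily, read 10.29, 10.22 and 10.04 with control shRNA and 8.46, 8.47 and 8.56 with TBLR1 shRNA and fell 3.22-fold (limma adjusted p = 2.40e-11). Abcd2, which carries very long-chain acyl-CoA into peroxisomes, fell 1.46-fold. Of 30 genes of lysosome and autophagy 6 rose and 6 fell, a share of 40.0% called that is close to that of all genes. Atp6v1a, a catalytic subunit of the proton pump that acidifies lysosomes, read 9.97, 9.97 and 9.98 against 10.88, 10.90 and 10.94 and rose 1.91-fold, while Ctsk, cathepsin K, fell 1.25-fold.

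Respiratory complexes III and IV gave 10 falls and no rise among 23 genes in the limma test (0 were higher at an unadjusted p under 0.05). That is a share of 43.5% called, and the median of -0.07 became -0.004 with centring on hybridisation controls. The list's median control level was 12.465, and of the 5088 genes of highest level 36.1% fell. Uqcrh, a hinge subunit of complex III, fell by 0.24 ± 0.04. Of 12 ATP synthase genes 6 fell and 1 rose, a share of 58.3% called, with a median of -0.09 that became -0.02 with that centring. Of 24 integrin and laminin genes 7 fell and 1 rose, a share of 33.3% called, with a median of -0.02 that became 0.05 with centring on hybridisation controls. Lama4, a basement membrane laminin chain, fell by 0.42 ± 0.05. Of 19 genes of the hypoxia response 7 fell and 3 rose, a share of 52.6% called. Higd1a, a hypoxia-induced mitochondrial protein, read 7.45, 7.46 and 7.77 against 8.27, 8.31 and 8.58, a rise of 0.83 ± 0.09, and Vegfa, the vessel growth factor, fell by 0.31 ± 0.05. Of 14 clock genes 5 fell and 3 rose, with a median of -0.06 that became 0.01 with that centring. Nfil3, a repressor of D-box genes, rose by 0.48 ± 0.07 while Tef, an activator of them, fell by 0.33 ± 0.04. Of 23 nuclear receptor genes 5 fell and 3 rose, a share of 34.8% called, with a median of -0.01 that became 0.06 with that centring. Rora, which activates clock genes, fell by 0.61 ± 0.05.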
